A study of Rattus norvegicus with 12 samples.

Results

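The genes described are PCNA, the sliding clamp of the replication fork, and the genes read beside it for the supply of deoxynucleotides and for entry into S phase. The members were fixed by name as PCNA, RRM1, RRM2, TYMS, TK1, DUT, UNG, E2F1 and UHRF1. Of these 9 symbols, 8 have a row among the 14692 genes listed, and TK1 was not analysed here. Averaged across the 12 columns, all 8 reached 1 RPKM, and 8459 genes in total did so.

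Livers of male Sprague Dawley rats aged 4 to 5 months were sequenced at 0, 4, 12 and 24 h after 2/3 partial hepatectomy (PH), which followed a first operation by 24 h. Control rats had a sham biliary fistula, and in the other groups a catheter drained the bile to the outside. All rats had a duodenal catheter with saline, and in the infused group it also delivered sodium taurocholate, a bile acid (BA), from 12 h before PH. The deposited values form 12 columns, a single one per group (3 groups) and time (4 times). Each column is the authors' mean of a run on RNA of 1 rat and a run on combined RNA of 3 rats. The spread between rats and the reads per column are therefore unknown, no difference below has a replicate check, and no p-value is given.

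The names of the fistula groups are in conflict. By sample title the columns are Control, BA and BF, and the study uses BF for drained rats and BA for the added infusion. The sample descriptions give the columns titled BA as fistula without bile and those titled BF as fistula with infusion. The columns are called BF and BA here after their titles, and every statement on them holds for the titled columns, whichever treatment each one had.

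DNA synthesis needs a balanced supply of the deoxynucleotide building blocks, which resting hepatocytes hold at low levels. Ribonucleotide reductase, made of the subunits RRM1 and RRM2, converts ribonucleotides to deoxynucleotides. TYMS methylates dUMP to dTMP, DUT breaks down dUTP and yields dUMP, and UNG cuts uracil out of DNA. PCNA encircles DNA and holds polymerases and ligase in place, E2F1 is a transcription factor that acts on many genes of this group, and UHRF1 brings the maintenance DNA methyltransferase to newly made DNA. In the rat, hepatocytes enter DNA synthesis in the first day after PH.

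Levels are in RPKM, reads scaled to transcript length and sequencing depth. Differences are log2 ratios of RPKM + 1, a scale that understates changes of weakly expressed genes. A gene was said to rise or fall when this ratio was at least 1 in size, that is 2-fold. In whole liver, fewer cells that express a gene and less RNA of it per cell cannot be told apart.

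Some columns stood apart. In BA at 4 h ALB reached 303637 RPKM, against 41049 to 99928 in the other columns, and the 10 most abundant genes took 53.2% of the RPKM total, against 29.4% to 41.0% elsewhere. In BF at 12 h the pancreatic acinar markers summed to 138.2 RPKM, led by CTRB1 at 84.7 RPKM, and 8 of the 9 were highest in that column. Hepatocyte markers were all found, 8 of 8, and summed to at least 73256 RPKM in every column. Of the other lists, 7 of 7 Kupffer cell markers summed to 253.2 to 383.2 RPKM, 4 of 6 cholangiocyte markers to 7.91 to 19.9 RPKM, 5 of 6 stellate cell markers to 25.4 to 60.05 RPKM, 3 of 6 endothelial markers to 38.6 to 63.3 RPKM, 4 of 6 erythroid markers to 166.7 to 494.1 RPKM and 5 of 6 lymphocyte markers to 0.44 to 3.79 RPKM. The part of these differences in the results was not tested.

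Between 0 and 24 h after PH, 7 of the 8 members rose in Control, 7 in BF and 6 in BA. Among all genes 8.29% of the genes rose in Control, 9.27% in BF and 3.83% in BA. The median log2 ratio of the 8 members was 3.03 in Control, 2.63 in BF and 1.30 in BA, beside 0.21, 0.28 and 0.15 for all 8459 genes. UNG was the member past 2-fold in no group, and UHRF1 was the other member that did not reach 2-fold in BA.

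**Figure D1:**
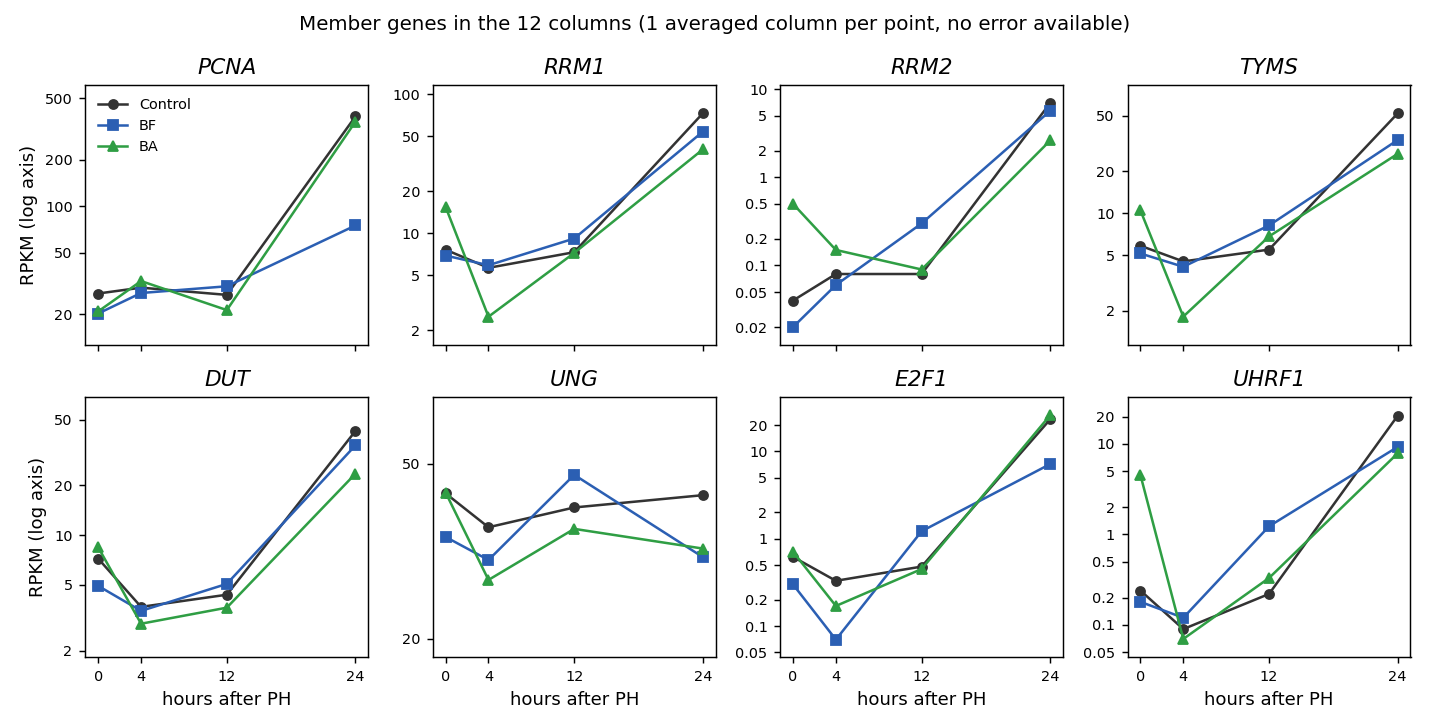
RPKM (log axis, with its own range in each panel) against hours after PH for the 8 members, with Control as black circles, BF as blue squares and BA as green triangles, each point being 1 averaged column without an error. In Control 7 members climb between 12 and 24 h, UNG stays between 27.2 and 47.2 RPKM in the 12 columns, and UHRF1 and RRM2 start higher in BA at 0 h.

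PCNA was the most abundant member at 24 h in each group. In Control it was at 27.3, 29.8, 26.8 and 381.3 RPKM at 0, 4, 12 and 24 h. In BF it was at 20.3, 27.5, 30.4 and 75.2 RPKM, and in BA at 20.9, 32.9, 21.3 and 352.9 RPKM. The 9 columns before 24 h lay within 20.3 to 32.9 RPKM, and at 24 h the BF column was the low one. The rise to 24 h was 14.0-fold in Control, 16.9-fold in BA and 3.71-fold in BF.

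RRM1, the large subunit of ribonucleotide reductase, carries the catalytic and regulatory sites. It was at 7.62, 5.64, 7.31 and 73.0 RPKM in Control, and at 6.91, 5.89, 9.17 and 53.9 RPKM in BF, in order of time. In BA it was at 15.5, 2.51, 7.22 and 40.1 RPKM. BA thus held both the highest value at 0 h and the lowest values at 4 and 24 h. The log2 ratio of 24 h to 0 h was 3.10 in Control, 2.79 in BF and 1.32 in BA.

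RRM2, the small subunit with the tyrosyl radical, was close to 0 before 24 h. In Control it was at 0.04, 0.08, 0.08 and 6.99 RPKM and in BF at 0.02, 0.06, 0.30 and 5.69 RPKM. In BA it was at 0.50, 0.15, 0.09 and 2.62 RPKM. At 24 h RRM1 exceeded RRM2 by 10.4 times in Control, 9.47 times in BF and 15.3 times in BA on the RPKM scale, which is per length. RRM2 rose with a log2 ratio of 2.94 in Control, 2.71 in BF and 1.27 in BA.

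TYMS, the thymidylate synthase, was at 5.83, 4.5, 5.47 and 51.8 RPKM in Control and at 5.13, 4.12, 8.15 and 33.4 RPKM in BF. In BA it was at 10.4, 1.81, 6.80 and 26.6 RPKM. As for RRM1, BA was high at 0 h and low at 4 and 24 h. The ratio of TYMS to RRM1 stayed between 0.62 and 0.942 in the 12 columns, while the level of RRM1 went from 2.51 to 73.0 RPKM.

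DUT, the dUTPase, was at 7.21, 3.68, 4.36 and 42.7 RPKM in Control and at 4.93, 3.48, 5.07 and 35.0 RPKM in BF. In BA it was at 8.44, 2.91, 3.64 and 23.6 RPKM. It was the member with the smallest rise among the 7 that rose in Control, with a log2 ratio of 2.41, and rose by 2.60 in BF and 1.38 in BA.

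UNG, the uracil-DNA glycosylase, kept about the same level. It was at 42.8, 35.9, 39.8 and 42.4 RPKM in Control, at 34.1, 30.2, 47.2 and 30.7 RPKM in BF and at 43.0, 27.2, 35.6 and 32.1 RPKM in BA. At 0 h it was the most abundant member in each group, and at 24 h the log2 ratio to 0 h was -0.01 in Control, -0.15 in BF and -0.41 in BA. DUT keeps dUTP out of the nucleotide pool and UNG removes uracil once it is in DNA. The level of DUT was 0.168 times that of UNG in Control at 0 h and 1.01 times at 24 h. In BF this ratio went from 0.145 to 1.14 and in BA from 0.196 to 0.734.

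E2F1 was at 0.62, 0.33, 0.48 and 23.3 RPKM in Control and at 0.30, 0.07, 1.22 and 7.17 RPKM in BF. In BA it was at 0.71, 0.17, 0.45 and 26.0 RPKM. Like PCNA, E2F1 was close in Control and BA at 24 h and low in BF. Its log2 ratio of 24 h to 0 h was 3.91 in Control, 3.98 in BA and 2.65 in BF.

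UHRF1 had the largest log2 ratio of the members in Control, at 4.11. It was at 0.24, 0.09, 0.22 and 20.5 RPKM in Control and at 0.18, 0.12, 1.23 and 9.27 RPKM in BF. In BA it was at 4.54, 0.07, 0.33 and 7.87 RPKM. The BA column at 0 h stood above every other column before 24 h. In BA the log2 ratio of 24 h was 0.68 against 0 h and 2.74 against 12 h.

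At 24 h the members split into 2 patterns between the groups. PCNA was at 19.7% of the Control level in BF and at 92.6% in BA, and E2F1 at 30.7% and 111.6%. The other 5 members that rose in Control had the opposite order of BF and BA. RRM1 was at 73.8% of Control in BF and 54.9% in BA, RRM2 at 81.4% and 37.5%, and TYMS at 64.4% and 51.3%. DUT was at 81.9% in BF and 55.2% in BA, and UHRF1 at 45.3% and 38.5%. UNG was at 72.3% in BF and 75.6% in BA.

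Against Control, 3 members were at least 2-fold lower in BF, namely PCNA at a log2 ratio of -2.33, E2F1 at -1.57 and UHRF1 at -1.06, where 1.31% of all genes were. In BA 2 members were at least 2-fold lower than in Control, RRM2 at -1.14 and UHRF1 at -1.27, where 1.32% of all genes were. With the columns rescaled on their median gene, UHRF1 in BF at -0.91 and RRM2 in BA at -0.94 no longer passed 2-fold. In BF against BA, PCNA at -2.22 and E2F1 at -1.73 were at least 2-fold lower, where 0.969% of all genes were, and no member was 2-fold higher, where 0.887% of all genes were. The ratios of BF to BA for the other risen members were 0.42 for RRM1, 0.89 for RRM2, 0.32 for TYMS, 0.55 for DUT and 0.21 for UHRF1, all short of 2-fold. With a pseudocount of 0.1 RPKM, RRM2 passed 2-fold, at 1.09. The 3 comparisons share columns, so they are not independent of each other.

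**Figure D2:**
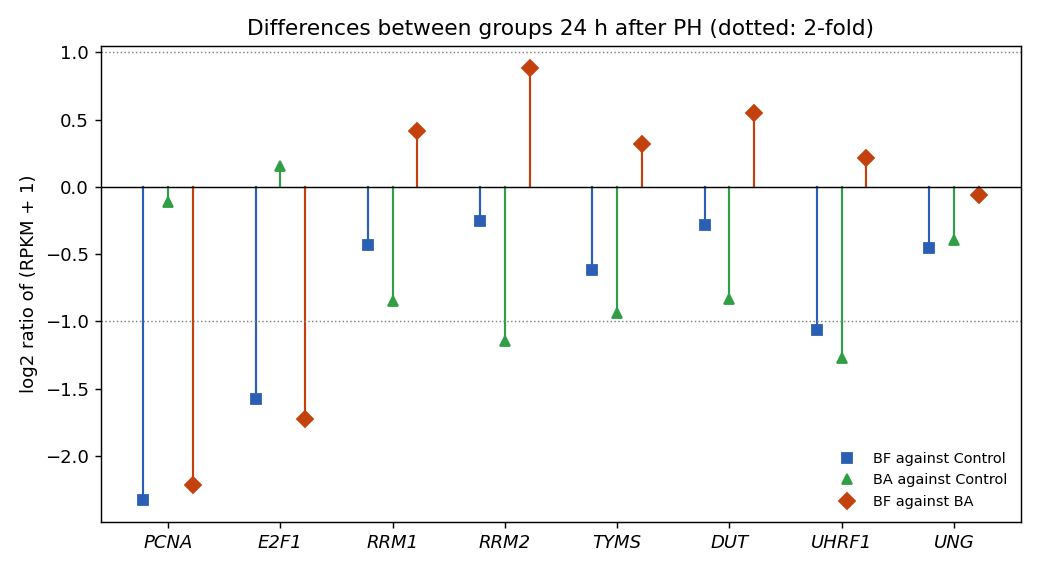
Log2 ratios of RPKM + 1 at 24 h after PH for the 8 members, as BF against Control (blue squares), BA against Control (green triangles) and BF against BA (orange diamonds), with dotted lines at 2-fold and 1 averaged column behind each group. PCNA and E2F1 lie at -2.22 and -1.73 in BF against BA, whereas RRM1, RRM2, TYMS, DUT and UHRF1 lie between 0.21 and 0.89.

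The split ran along a list that the study used, and the members were chosen with earlier results of these data known. PCNA and E2F1 are in the DNA replication list with which the study analysed these data, and the other 6 members are not. Related genes were read from 6 lists, of which 68 of 90 symbols were found. In Control 27 of these 68 genes rose to 24 h, beside 8.29% of all genes. Of the 27, 11 were in the study's list and 16 outside it. All 11 came from the list of the loaders and partners of PCNA, and the other lists held no listed gene that rose. Listed and other genes thus came mostly from different lists. Of the 11 listed genes all 11 were lower in BF than in BA at 24 h, with a median log2 ratio of -1.17. At least 2-fold lower were 8 of them, where 0.969% of all genes were. Of the 16 others 11 were higher in BF than in BA, with a median of 0.12. None of the 16 differed by 2-fold, where 0.969% of all genes were lower and 0.887% higher by that much. Among these 16, CHTF18, DNMT1 and RNASEH2A are also loaders or partners of PCNA, at 0.55, 0.13 and 0.30. For all 8459 genes the median was 0.06.

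**Figure D3:**
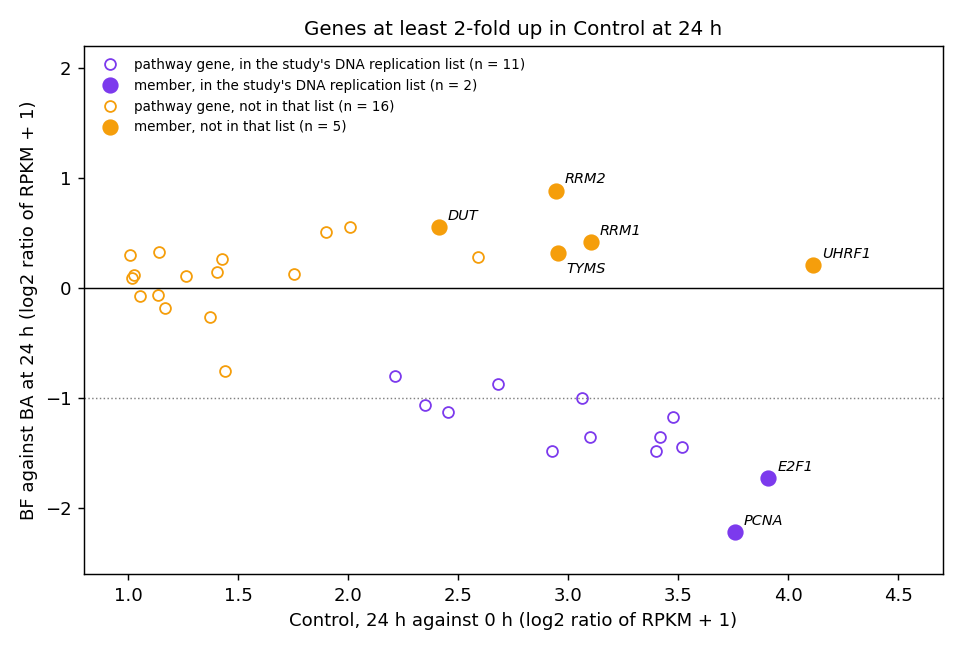
Log2 ratio of BF to BA at 24 h (vertical) against the log2 ratio of 24 h to 0 h in Control (horizontal) for genes that rose in Control, with members as filled and pathway genes as open circles, in purple for genes of the study's DNA replication list and orange for others. The 2 listed members and 11 listed pathway genes lie below 0, and the 5 unlisted members lie above 0 together with 11 of the 16 unlisted pathway genes.

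A wider count took in all genes. Of these, 56 genes of the study's list and 164 others were at least 4-fold higher in Control at 24 h than at 0 h. In BF against BA, which uses neither Control column, 55 of the 56 listed genes were lower in BF, with a median log2 ratio of -1.14, and 130 of the 164 others were higher in BF, with a median of 0.38. The median of all genes was 0.06. The ratio of BA to Control at 24 h spanned -0.12 to 0.12 from the 10th to the 90th percentile of the 133 listed genes that averaged 1 RPKM or more, around a median of -0.01. It spanned -0.49 to 0.16 for the 8326 other genes, around a median of -0.17. These counts were chosen after the split of the members was seen, and what sets the listed rows apart was not tested. Lower levels in BF than in BA at 24 h were thus found in this table for PCNA and E2F1 and not for RRM1, RRM2, TYMS, DUT or UHRF1.

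At 0 h the 6 unlisted members were each above their Control level in BA, by a median log2 ratio of 0.64, and UNG by 0.01 alone. UHRF1 was at least 2-fold higher, at 2.16, where 1.87% of all genes were. RRM1 followed at 0.93, TYMS at 0.74, RRM2 at 0.53, and DUT at 0.20. PCNA was at -0.37, and E2F1 at 0.08 lay between UNG and DUT. In BF against BA at 0 h, UHRF1 at -2.23 and RRM1 at -1.06 were at least 2-fold lower, where 1.39% of all genes were. After rescaling on the median gene, RRM1 passed 2-fold in BA against Control, at 1.03, and no longer in BF against BA, at -0.96. BF differed from Control by at most 0.47 in size for any member at 0 h. The lymphocyte markers summed to 1.32 RPKM in BA at 0 h, 1.38 in BF and 3.79 in Control, and the erythroid markers to 194.2, 285.4 and 494.1 RPKM. The part of such cells in the member levels at 0 h was not tested.

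At 4 h against 0 h, no member rose or fell in Control or BF, where 9.2% and 12.0% of all genes passed 2-fold in either direction. In BA 4 members fell, where 13.2% of all genes did. UHRF1 fell by 2.37 on the log2 scale, RRM1 fell by 2.23, TYMS fell by 2.03 and DUT fell by 1.27. PCNA had a ratio of 0.63 in the same column. Rescaling on the median gene, which bears on the high ALB value of the BA column at 4 h, gave -2.37, -2.04, -1.85 and -1.07 for UHRF1, RRM1, TYMS and DUT. At 4 h itself no member differed from Control by 2-fold in BF, where 4.35% of all genes did, or in BA, where 7.28% did. TYMS at -0.97 and RRM1 at -0.92 in BA were the lowest. With a pseudocount of 0.1 RPKM, TYMS and RRM1 in BA passed 2-fold, at -1.27 and -1.14, and E2F1 in BF at -1.34. With that pseudocount, E2F1 at 4 h against 0 h was at -1.23 in BF and -1.585 in BA, and RRM2 in BA at -1.26.

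At 12 h against 0 h, no member rose or fell in Control or in BF, where 13.9% and 7.61% of all genes passed 2-fold in either direction. All 8 members were above their 0 h level in BF, by a median of 0.51, with UHRF1 at 0.92 and E2F1 at 0.77. After rescaling on the median gene UHRF1 in BF was at 1.003, past 2-fold. With a pseudocount of 0.1 RPKM, UHRF1, RRM2 and E2F1 in BF were at 2.25, 1.74 and 1.72, and RRM2 in BA at -1.66. These are weakly expressed members, for which the scale matters most. In Control 1 of the 8 was above its 0 h level. After rescaling on the median gene, PCNA, RRM1, RRM2, TYMS, UNG and UHRF1 in Control were above their 0 h level, by 0.18 or less. DUT at -0.44 and E2F1 at -0.06 were below it. In BA 3 members fell, where 5.77% of all genes did, namely UHRF1, which fell by 2.06 on the log2 scale, DUT, which fell by 1.02, and RRM1, which fell by 1.00. After rescaling on the median gene DUT was at -0.90 and RRM1 at -0.86, short of 2-fold. At 12 h the 8 members were all higher in BF than in Control, by a median of 0.28, and than in BA, by a median of 0.39, with none past 2-fold, where 3.52% and 1.92% of all genes were. With the pseudocount of 0.1 RPKM, RRM2, E2F1 and UHRF1 passed 2-fold in both comparisons, where 5.44% and 3.56% of all genes did. That BF column is the one with the pancreatic markers, whose part in these values was not tested.

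The genes most like each member were sought by Pearson's r of log2(RPKM + 1) over the 12 columns among 8459 genes, as a description, since the points share columns and 3 of them at 24 h carry most of the range. For PCNA they were POLA2 (r = 0.98), CDC6 (0.98) and MCM7 (0.98). For E2F1 they were DSN1, LIG1 and GINS1, each at r of 0.99 or more. RRM1 was closest to TYMS, at 0.995, and then to SMC2 and HAUS4. TYMS was closest to RRM1, WDR51A and SMC2, RRM2 to MELK, RGD1562052 and RGD1310784, DUT to XRCC2, LOC498265 and TUBE1, and UHRF1 to CHAF1B, ZFP367 and ASF1B. UNG had no such close gene, with B3GALT4 at 0.87, PCDHGC3 at 0.86 and GPNMB at 0.83. By Spearman's rho 3 of the 24 named genes were the same.

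The genes named for PCNA and E2F1 were all in the study's DNA replication list, 6 of 6, and those for the other members were all outside it, 18 of 18. Of the ranked genes 1.57% are in that list. Among the 20 nearest genes, a number chosen after these were seen, PCNA and E2F1 had 20 of 20 in the list and each other member 0 of 20. The r values use the same columns at 24 h in which the split was seen, so these counts restate the split. Among the members PCNA was closest to E2F1, at r = 0.966, and was at 0.813 to 0.856 with RRM1, RRM2, TYMS, DUT and UHRF1. These 5 were at 0.936 to 0.995 with each other, and UNG was at -0.06 to 0.215 with the rest.

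**Figure D4:**
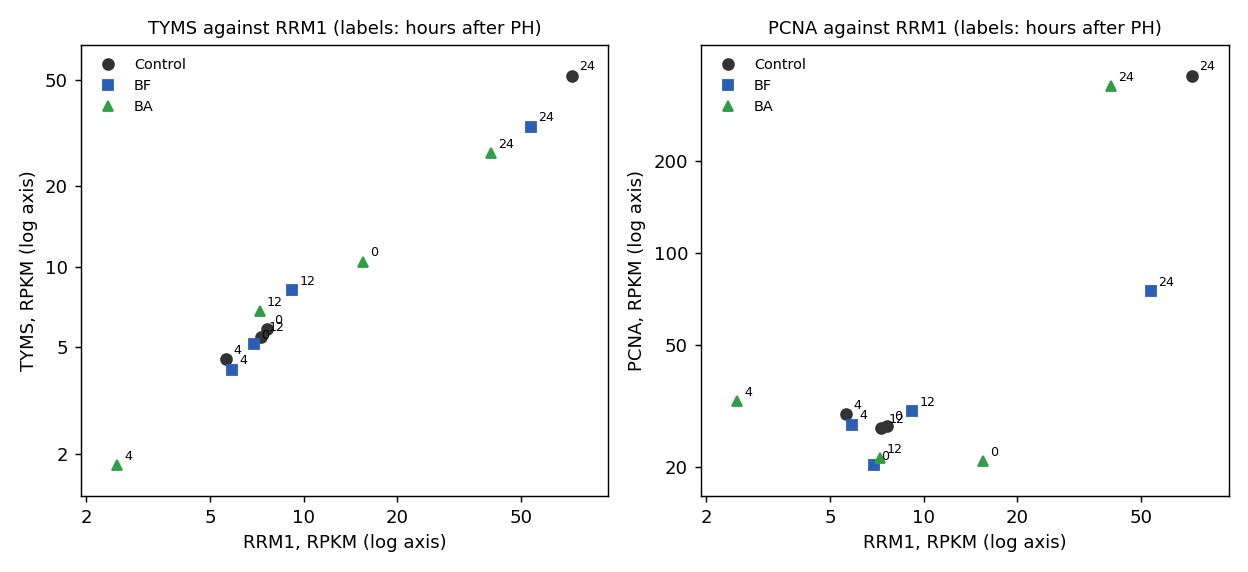
TYMS (left) and PCNA (right) against RRM1 in RPKM on log axes, with 12 averaged columns marked by group (Control circles, BF squares, BA triangles) and labelled with the hours after PH. TYMS keeps 0.62 to 0.942 of the level of RRM1 in every column, whereas PCNA goes from 1.35 times RRM1 in BA at 0 h to 13.1 times in BA at 4 h.

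The other enzymes of deoxynucleotide supply were read from a list of 18 symbols, of which 15 were found. To 24 h 7 of these rose in Control, 6 in BF and 2 in BA. Beside the counts for this list and those below, 8.29% of all genes rose in Control, 9.27% in BF and 3.83% in BA. DCK, the kinase that salvages deoxycytidine, had log2 ratios of 2.59 in Control, 1.64 in BF and 0.57 in BA. DTYMK, which phosphorylates dTMP, was at 1.90, 1.73 and 0.77 in the same order. NME1, a nucleoside diphosphate kinase, was at 1.43, 1.79 and 0.97. MTHFD2, a mitochondrial enzyme of folate metabolism, was at 1.44, 1.16 and 1.30, and at 4 h it stood at 13.7 RPKM in BA, 3.23 in BF and 1.13 in Control. At 24 h 14 of the 15 were higher in BF than in BA, with a median of 0.12, beside a median of 0.06 for all genes. None was higher by 2-fold, where 0.887% of all genes were.

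Of 16 genes found for purine and pyrimidine synthesis 5 rose in Control, 5 in BF and 0 in BA. All 16 were above their 0 h level at 24 h in each group, by a median of 0.82 in Control, 0.81 in BF and 0.37 in BA. CTPS, the CTP synthase, had ratios of 1.37 in Control, 1.74 in BF and 0.71 in BA, UMPS, the last enzyme of UMP synthesis, of 1.17, 1.43 and 0.63, and DHODH of 1.02, 1.24 and 0.23. IMPDH2, the enzyme of guanine nucleotide synthesis, was at 0.96, 1.11 and 0.68. CTPS had risen by 4 h already, with ratios of 1.24 in Control, 2.42 in BF and 1.19 in BA, at a time when RRM1, RRM2 and TYMS had not.

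Among the loaders and partners of PCNA 14 of 18 genes rose in Control, 15 in BF and 11 in BA. The clamp loader subunits RFC4 and RFC3 had ratios of 3.48 and 3.42 in Control, 2.64 and 2.46 in BF, and 3.77 and 3.78 in BA. LIG1, the ligase that seals the lagging strand, was at 3.40, 2.39 and 3.66, and CDT1, which licenses origins and is destroyed on PCNA, at 3.52, 2.28 and 3.44. These 4 are in the study's list and were lower in BF than in BA at 24 h, by ratios from -1.17 to -1.48. DNMT1, which UHRF1 brings to DNA and which is not in that list, had ratios of 1.75 in Control, 1.58 in BF and 0.39 in BA, and of 0.13 in BF against BA at 24 h.

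In the remaining lists few genes passed 2-fold. Of the E2F and pocket protein family 4 of 12 symbols were found. E2F7, a repressor named after its values were seen, went from 0.03 to 1.47 RPKM in Control, 0.01 to 0.65 in BF and 0.16 to 0.53 in BA, and passed 2-fold on the RPKM + 1 scale in Control. E2F3 had ratios of 0.80 in Control, 0.55 in BF and 1.24 in BA, TFDP2 of 0.74, 0.31 and 0.07, and RBL2 of -0.34, -0.35 and -0.20. Beside UHRF1, HELLS, a chromatin remodeller, was at 0.86, 0.97 and 0.36, UHRF2 at 0.57, 0.51 and 0.18, and DNMT3A at 0.36, 0.31 and 0.03. Of 10 genes of uracil and base excision repair 0 rose in Control, 1 in BF and 0 in BA. These counts were near the shares of all genes, at 8.29%, 9.27% and 3.83%. TDG, another glycosylase, was at 0.72, 0.88 and 0.57, APEX1, the endonuclease of the next step, at 0.48, 1.07 and 0.40, MUTYH at 0.58, 0.74 and 0.28, and PARP1 at 0.46, 0.76 and 0.18.

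The sequence before the transcription start was read for members that rose together and for UNG, which did not rise. The RefSeq promoter table (GRCr8, which is not the build of the RPKM values) holds windows for 7 of the 9 symbols, TK1 included, with 2 starts for DUT and 3 for UHRF1. RRM2 and E2F1, which rose, had no window. The 250 bases before each start were searched on both strands for 4 spellings of the E2F-type element (TTGGCGC or TTCCCGC, besides TTCGCGC or TTGCCGC), for the CCAAT letters, for TTTGAA, the letters of the cell cycle homology region, and for TATAAA. Over all 33465 windows 7.59% held an E2F-type spelling, 34.0% CCAAT, 16.2% TTTGAA and 12.9% TATAAA. The elements do not overlap in the members.

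Below are the windows of PCNA (chr3:139955821-139956070, minus strand), RRM1 (chr1:166235654-166235903, plus strand), TYMS (chr9:120776084-120776333, minus strand), UNG (chr12:48154046-48154295, minus strand) and the third start of UHRF1 (chr9:1222936-1223185, plus strand), read 5′ to 3′ toward the start, with E2F-type and CCAAT letters of either strand in capitals.
PCNA: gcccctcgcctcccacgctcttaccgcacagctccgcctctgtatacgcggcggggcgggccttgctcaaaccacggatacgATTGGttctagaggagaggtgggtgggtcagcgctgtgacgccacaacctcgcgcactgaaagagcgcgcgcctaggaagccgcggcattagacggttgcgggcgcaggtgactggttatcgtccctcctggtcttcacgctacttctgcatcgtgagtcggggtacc
RRM1: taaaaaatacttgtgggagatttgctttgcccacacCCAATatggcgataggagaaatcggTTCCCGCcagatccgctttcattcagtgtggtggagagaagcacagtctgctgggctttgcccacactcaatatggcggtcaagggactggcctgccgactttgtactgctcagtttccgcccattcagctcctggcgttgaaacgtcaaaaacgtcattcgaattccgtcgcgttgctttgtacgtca
TYMS: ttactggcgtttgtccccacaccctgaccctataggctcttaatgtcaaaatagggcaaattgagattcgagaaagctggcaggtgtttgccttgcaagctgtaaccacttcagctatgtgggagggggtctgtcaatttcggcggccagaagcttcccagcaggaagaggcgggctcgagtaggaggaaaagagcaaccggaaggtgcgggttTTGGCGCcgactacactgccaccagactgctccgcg
UNG: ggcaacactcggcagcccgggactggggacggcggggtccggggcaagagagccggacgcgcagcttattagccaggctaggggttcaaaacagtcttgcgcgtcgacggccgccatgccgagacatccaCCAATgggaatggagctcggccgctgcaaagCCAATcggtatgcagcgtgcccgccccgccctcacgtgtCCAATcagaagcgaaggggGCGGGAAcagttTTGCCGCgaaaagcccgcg
UHRF1: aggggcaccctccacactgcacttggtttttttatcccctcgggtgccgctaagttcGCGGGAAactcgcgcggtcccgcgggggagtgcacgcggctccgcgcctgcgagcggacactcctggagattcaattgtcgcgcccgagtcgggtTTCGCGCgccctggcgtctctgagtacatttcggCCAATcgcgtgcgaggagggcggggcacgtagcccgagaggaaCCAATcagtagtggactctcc

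An E2F-type spelling was found in RRM1, 189 to 183 bases before the start, in TYMS, 36 to 30 bases before it, and in 2 of the 3 windows of UHRF1. UNG held 2, at 31 to 25 and 19 to 13 bases before the start, together with 3 CCAAT elements. The PCNA window held CCAAT on its other strand and no E2F-type spelling, and the DUT windows held neither. TTTGAA was in the second DUT window, 197 to 192 bases before the start, and in UNG, 166 to 161 bases before it. TATAAA was in none of the 10 windows, and the window of TK1, whose level was not analysed here, held none of the letters searched. The letters did not divide the members as their levels did, since UNG, which did not rise, had as many E2F-type spellings as the richest UHRF1 window, and PCNA and DUT, which rose, had none. A match is a description of these letters, and their absence says nothing of other spellings or other positions.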

How the data were processed

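RNA of rat liver was sequenced after poly(A) selection (TruSeq, 50-cycle single reads). The deposited values are RPKM per gene, and each column is the mean that the authors made of 2 runs. The submitters' processing notes name CASAVA, Bowtie 0.12.2 and the builds mm8 and rn4 without giving their roles. The number of reads is not known, so neither counting intervals nor detection limits were computed.

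Columns were matched to samples by title. Log2 ratios of RPKM + 1 were computed for 9 contrasts over time and 12 between groups with Python 3.11.15 and pandas 2.3.3. A ratio of at least 1 in size was called. Shares of all genes refer to the 8459 that averaged 1 RPKM or more. Of the 14692 rows, 2303 were at 0 throughout and 1 had no value. No test was run. The calls were checked on simulated data.

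All members, the 3 most correlated genes of each, and the 4 genes of each pathway list with the largest mean log2 ratio to 24 h were named. Members and lists were chosen with earlier results of these data known. Alternatives were a pseudocount of 0.1 RPKM, 2 rescalings, a 1.5-fold limit, all genes above 0, exchanged group names, Spearman's rho and leaving out BF at 12 h. Other base columns for 24 h were chosen after seeing the data.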

Additional observations from a re-analysis of the deposited data

Results flagged for a closer look

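Between 0 and 12 h after PH, 3 members had a log2 ratio above 0 in BF, short of 2-fold, and one past 2-fold below 0 in BA, in the single averaged column that stands for each group and time, and the differences were not tested. RRM1 had a log2 ratio of 0.36 in BF and fell by 1.00 in BA, a difference of 1.37. DUT was at 0.03 in BF and -1.02 in BA, a difference of 1.06. UHRF1 was at 0.92 in BF and -2.06 in BA, a difference of 2.98. In all 3 genes BA was the highest group at 0 h, and BF was the highest group at 12 h.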

How the results depend on the processing

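No paired analysis was possible because each group and time has a single averaged column. Without replicates or read depth, weak members such as RRM2 before 24 h cannot be told from background. Of 168 member ratios, 161 kept their call (2-fold higher, 2-fold lower or neither, whatever the sign of the last) after rescaling on the median gene, 165 after rescaling on the total without the 10 most abundant genes, 144 with a pseudocount of 0.1 RPKM (the other 24 newly passed 2-fold) and 140 with the group names exchanged, and the same held for 23 of 24 ratios with 12 h and for 23 of 24 with 4 h in place of 0 h.

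Exchanging the names BA and BF, as the sample descriptions read, cannot change the Control ratios over time, whose calls were kept by construction. It flips the sign of each ratio of BF to BA by construction, and 9 of the ratios past 2-fold changed sign. In BA at 12 h against 0 h, RRM1 became 0.36, DUT 0.0337 and UHRF1 0.92. UHRF1 in BA against Control at 0 h became -0.0716, and in BF against BA at 0 h RRM1 became 1.06 and UHRF1 2.23. At 24 h E2F1 in BF against Control became 0.15, and in BF against BA PCNA became 2.22 and E2F1 1.73. The counts of members became 0 for lower in BA at 4 h and at 12 h, higher in BA than Control at 0 h, and lower in BF than BA at 0 h and at 24 h. Pathway genes that rose to 24 h became 14 in BF and 27 in BA, and those lower at 24 h became 0 in BF and 9 in BA against Control and 0 in BF against BA.

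With a 1.5-fold limit 42 pathway genes rose in BF and 24 in BA. At 24 h 14 were lower than Control in BF and 4 in BA. Of the members, 3 were higher in BA than Control at 0 h, 4 lower in BF than BA at 0 h and 5 lower in BA than Control at 24 h. The share of all genes past 1.5-fold was not computed, so these counts have no background beside them. Rescaling on the median gene gave 1, 2, 1 and 1 members for lower in BA at 12 h, higher in BA than Control at 0 h, lower in BF than BA at 0 h and lower in BA than Control at 24 h, and rescaling on the total gave 1 for lower in BA at 12 h. With a pseudocount of 0.1 RPKM the member median was -1.54 in BA at 4 h against 0 h and -1.01 in BF against BA at 0 h, 3 members were higher in BA than Control at 0 h, 5 lower in BF than BA at 0 h, and 1 pathway gene was lower in BA than Control at 24 h. Against 4 h, 25 pathway genes rose in BA. Against 4 h and against 12 h, the member median at 24 h was higher in BA than in BF, the reverse of the order against 0 h. The share of all genes past 2-fold rose in 5 of 21 comparisons by over 1.5 times with that pseudocount, to 3.05% to 8.25%. Of the 24 genes named as most like a member, 3 were shared by Spearman's rho and 16 without BF at 12 h. Where no construction shows it, the cause was not tested.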
